A study of Mus musculus with 12 samples.

Results

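The 10 genes described here encode proteins that bind microtubules or set how they grow: Map1b, Map4, Map6, Map7, Map7d1, Mapt, Mapre1, Mapre2, Mapre3 and Stmn1. They were taken by symbol from 55573 annotated mouse genes, and all 10 passed the filter on low counts that left 14226 genes for testing. RNA was measured in PB3, a mouse breast cancer cell line, in 12 samples that fall into 4 groups of 3. Control is the PB3-Parental line without treatment. The groups ERI-R, PAC-R and VIN-R are resistant derivatives of PB3 obtained with Erubilin (spelled eribulin in the treatment protocol), Paclitaxel and Vinorelbine. Each drug was given at 300, 500 and 800 nM. The protocol speaks of resistant clones, so each derivative may stem from few cells. The labels do not say which dose a derivative reached or whether drug was present at harvest. Nor do they say whether replicates were separate cultures, and p-values therefore rest on a spread that may be technical.

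Microtubules are hollow polymers of alpha- and beta-tubulin that grow and shrink mainly at their plus end. Proteins of the MAP1, MAP4, MAP6 and tau families bind along the wall, or lattice, of the polymer and stabilise it. MAP7 and MAP7D1 also bind the lattice and recruit kinesin-1, a motor that carries cargo towards the plus end. The end-binding proteins EB1, EB2 and EB3, encoded by Mapre1, Mapre2 and Mapre3, ride on growing plus ends and bring other proteins there. Stathmin, encoded by Stmn1, binds free tubulin and favours shrinkage. MAP1B, MAP6 and tau are best known from neurons, MAP4 from most other cells and MAP7 from epithelia. The 3 drugs act on the same polymer: paclitaxel stabilises it, vinorelbine blocks its assembly and eribulin binds at plus ends and stops their growth.

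Before the groups are compared, 4 samples have to be set apart. VIN-R 3, PAC-R 3, ERI-R 3 and Control 1 held under 1 CPM of Ptprc, the pan-leukocyte gene CD45. CPM here is a gene's expected count divided by the summed counts of its sample and scaled to a common total. The summed level of 16 leukocyte markers was 24.1 to 141 CPM in these 4 samples, with 9 of the 16 at 0 in all of them, Lyz2, C1qa and Adgre1 among these. It was 878 to 5800 CPM in the other 8 samples. The labels name a cancer cell line and do not explain these leukocyte transcripts. Each group holds 1 sample with few leukocyte transcripts and 2 with many. The summed level of 7 proliferation markers was 1510 to 2710 CPM in the 4 samples and 1730 to 3180 CPM in the 8. Totals of expected counts lay between 11141028 and 13454395 per sample, so that 3 counts, taken as the floor, stand for 0.223 to 0.269 CPM. In such bulk samples, fewer cells of a type and less RNA per cell cannot be told apart. Of the receptors that the label calls absent, Esr1 stood at 12.9 ± 1.69 CPM (SD, n = 3) and Erbb2 at 31.4 ± 7.58 CPM in Control. Pgr stood at 0.0821 ± 0.142 CPM there.

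ERI-R differed from Control in 5 of the 10 genes. Map1b, Map6 and Map4 were lower and Map7 and Mapre3 higher in all 3 ERI-R samples than in any Control sample. With edgeR's quasi-likelihood test and a Benjamini-Hochberg adjusted p under 0.05, 2 of the 10 were called higher and 3 lower. Over all genes tested, 19.2% were called in that comparison, 9.51% higher and 9.69% lower. The members' median log2 fold change was -0.21, and that of all genes tested was -0.00. In addition Mapt did not overlap between these groups, which makes 3 genes higher and 3 lower without overlap. Over all genes tested, 35% did not overlap, 18.3% being higher and 16.6% lower. The 10 genes were chosen with earlier results of these data known, so their counts here and below are a description.

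**Figure D1:**
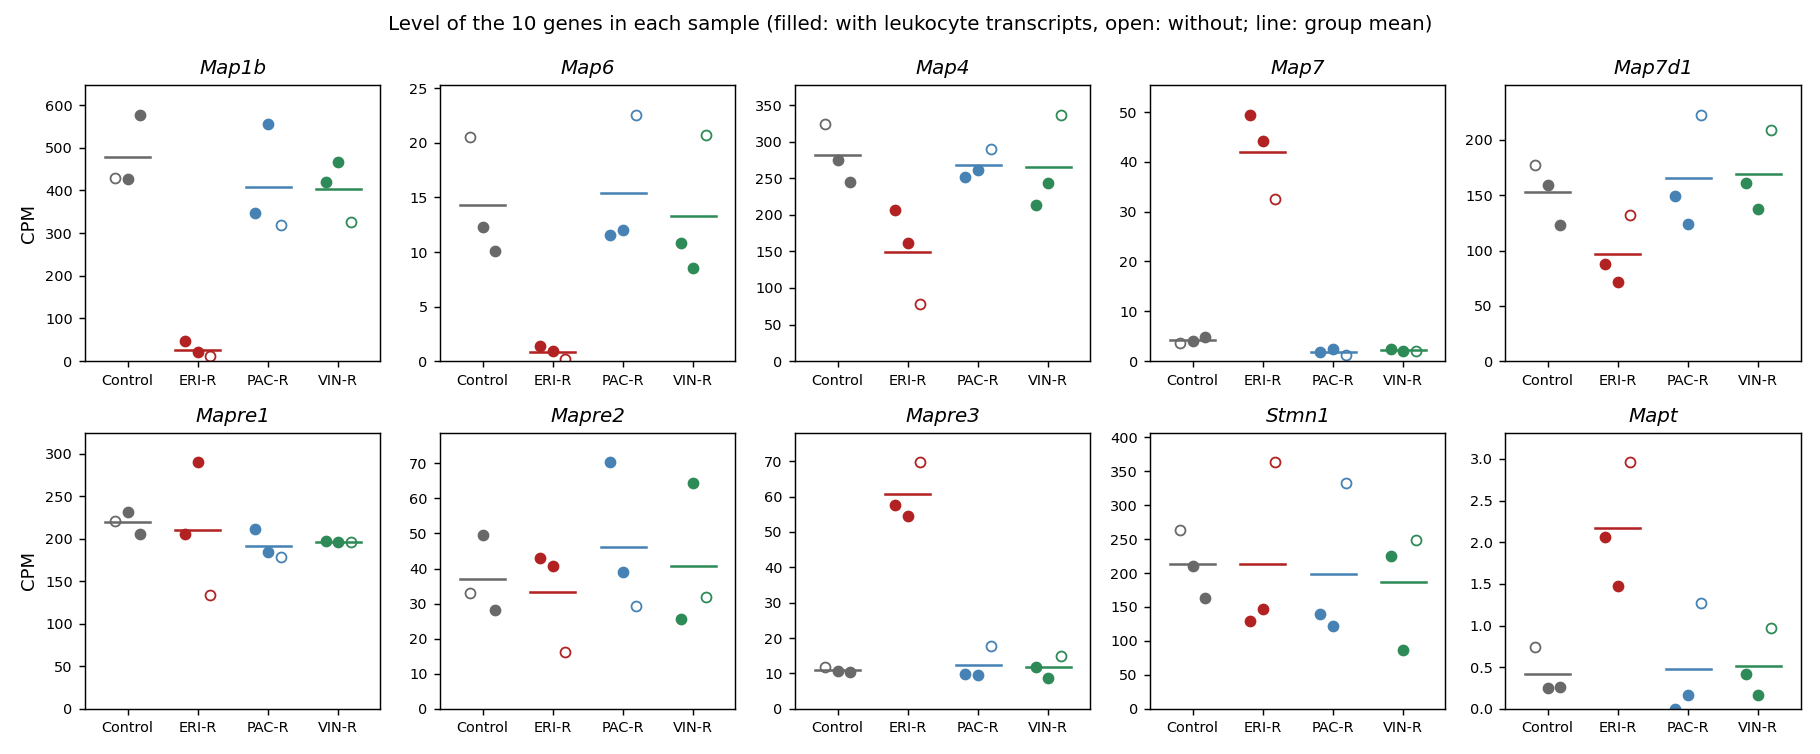
Level of each of the 10 genes in each sample, in CPM on a linear axis, by group. Filled circles are the 8 samples with leukocyte transcripts, open circles the 4 without, and lines are group means. Map1b and Map6 sit near the axis in ERI-R, where Map7 and Mapre3 are above all other samples, while the open circles of Stmn1 lie above all filled ones.

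Map1b, a large lattice-binding protein of growing axons, was with Map6 one of the 2 genes that fell most, by amounts that their errors do not separate. It stood at 430, 427 and 578 CPM in Control 1 to 3 and at 47.1, 21.9 and 12.5 CPM in ERI-R 1 to 3. Every ERI-R sample was thus far below every Control sample, and ERI-R 3 was the lowest. The fitted change was -4.26 (log2, SE 0.45, 95% interval -5.26 to -3.26), or 19.2-fold lower (edgeR adjusted p = 0.00037). Among the 8 samples with leukocyte transcripts alone it was -3.99 (adjusted p = 0.00074). The single Control and ERI-R samples without them gave -4.83, a value with no test.

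Map6 encodes the stable tubule only protein STOP, which protects microtubules from cold and from depolymerising drugs. It was far less abundant than Map1b, at 20.5, 12.3 and 10.1 CPM in Control. In ERI-R it fell to 1.34, 0.958 and 0.18 CPM, which are 15, 11 and 2 counts. The ERI-R 3 value is below the floor of 3 counts. The fitted change was -4.23 (log2, SE 0.61, 95% interval -5.58 to -2.87; edgeR adjusted p = 0.0012). The ratio of summed counts, scaled to the sample totals, ERI-R over Control, was 0.0566, with a 95% counting interval of 0.0373 to 0.0828 that covers counting error only. The 8 samples with leukocyte transcripts gave a smaller change of -3.39 (adjusted p = 0.00051), and the 2 samples without them -6.09, with no test.

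Map4, the lattice-binding protein of most non-neuronal cells, was one of the abundant members and fell less. It stood at 324, 275 and 245 CPM in Control and at 207, 162 and 78.4 CPM in ERI-R. The groups do not overlap, but ERI-R 1 lies closer to Control 3 than to ERI-R 3. The change was -1.03 (log2, SE 0.29, 95% interval -1.67 to -0.38), or 2.04-fold lower (edgeR adjusted p = 0.031). DESeq2's Wald test also called it (-0.96, adjusted p = 0.0046), but the edgeR call lies near the threshold and depends on which samples are included. Leaving out Control 1 (-0.83, adjusted p = 0.17), Control 2 (-1.04, 0.084), Control 3 (-1.14, 0.056), ERI-R 2 (-1.01, 0.084) or ERI-R 3 (-0.67, 0.1) ended it. Among the 8 samples with leukocyte transcripts the change was -0.61 (adjusted p = 0.095).

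Mapt, which encodes tau, was the least abundant of the 10 in Control. It had 10, 3 and 3 counts in Control 1 to 3, or 0.743, 0.246 and 0.267 CPM. ERI-R 1 to 3 had 23, 17 and 33 counts, or 2.06, 1.48 and 2.96 CPM, above all Control samples. The fitted value was 2.35 (log2, SE 1.06, 95% interval -0.00 to 4.69) and missed the threshold (edgeR adjusted p = 0.16). It was 1.99 to 3.08 when 1 sample at a time was left out, the highest without Control 1, and was not called in any of these fits. The ratio of summed counts, scaled to the sample totals, was 4.97, with a counting interval of 2.87 to 9.16. Among the 8 samples with leukocyte transcripts the value was 2.62 and just under the threshold (adjusted p = 0.05 after rounding), and with the mean of the leukocyte markers as a covariate it was 2.46 (adjusted p = 0.0071).

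Map7, also known as ensconsin or E-MAP-115, had the highest fitted rise of the called members. It stood at 3.64, 4.03 and 4.81 CPM in Control and at 49.5, 44.2 and 32.5 CPM in ERI-R. The lowest ERI-R sample was several times above the highest Control sample. The change was 3.26 (log2, SE 0.31, 95% interval 2.58 to 3.94), or 9.6-fold higher (edgeR adjusted p = 0.00033). It was about as large among the 8 samples with leukocyte transcripts (3.29, adjusted p = 0.00038) and between the 2 samples without (3.40, no test).

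Its relative Map7d1 was much more abundant in Control and did not follow it. Map7d1 stood at 177, 159 and 123 CPM in Control and at 87.9, 71.9 and 132 CPM in ERI-R. Only ERI-R 3 reached the Control range. The value was -0.64 (log2, SE 0.37, 95% interval -1.46 to 0.18; edgeR adjusted p = 0.28). Without ERI-R 3 it was -0.998 and called (adjusted p = 0.048), and among the 8 samples with leukocyte transcripts it was -0.94 and called (adjusted p = 0.026).

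Of the 3 end-binding genes, only Mapre3 was called. Mapre3 encodes EB3, which is best known from neurons and muscle. It stood at 11.7, 10.8 and 10.4 CPM in Control and at 57.6, 54.5 and 69.7 CPM in ERI-R. Samples of each group lay close together and far from the other group. The change was 2.45 (log2, SE 0.34, 95% interval 1.70 to 3.20), or 5.46-fold higher (edgeR adjusted p = 0.001). It was 2.28 among the 8 samples with leukocyte transcripts (adjusted p = 0.00062) and 2.84 between the 2 without (no test).

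Mapre1 encodes EB1, the core protein on which most other plus-end trackers load. It stood at 221, 232 and 206 CPM in Control and at 206, 290 and 134 CPM in ERI-R. The ERI-R samples lay on both sides of the Control range. The value was -0.16 (log2, 95% interval -0.70 to 0.39; edgeR adjusted p = 0.75). Mapre2, which encodes EB2, stood at 33.1, 49.6 and 28.2 CPM in Control and at 43.1, 40.8 and 16.2 CPM in ERI-R. Its value was -0.27 (log2, 95% interval -1.36 to 0.81; adjusted p = 0.78), and the groups overlap.

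Stmn1, the destabiliser of the set, differed between samples with and without leukocyte transcripts. It stood at 264, 211 and 163 CPM in Control and at 129, 147 and 363 CPM in ERI-R. PAC-R samples held 140, 122 and 332 CPM, and VIN-R samples 225, 86.8 and 249 CPM. The highest sample of each group is the one with few leukocyte transcripts. Those 4 samples held 249 to 363 CPM and the other 8 held 86.8 to 225 CPM, with no overlap. Stmn1 was the only one of the 10 genes for which these sets did not overlap. Over all genes tested, 20.1% did not overlap between them, 6.33% being higher and 13.8% lower in the 4. The summed proliferation markers given above overlap between both sets. ERI-R against Control gave 0.07 (log2, 95% interval -1.22 to 1.37; edgeR adjusted p = 0.96). Among the 8 samples with leukocyte transcripts the value was -0.56 (adjusted p = 0.4).

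Markers of cell state differed between the same groups. All 5 mesenchymal markers, Vim, Zeb1, Cdh2, Fn1 and Twist1, were called lower in ERI-R than in Control, and their summed level was 602 to 2110 CPM in ERI-R against 9490 to 12500 CPM in Control. Of 8 epithelial markers, 5 were called higher: Cdh1, Epcam, Krt14, Krt5 and Grhl2. Cldn4 (log2 2.17, edgeR adjusted p = 0.14) was not called. Krt8 (-0.79, adjusted p = 0.51) and Krt18 (-1.19, adjusted p = 0.3) had values in the other direction and were not called either. The summed epithelial level nevertheless overlapped, at 1270 to 2730 CPM in ERI-R and 1320 to 2320 CPM in Control. No marker of either list was at 0 in all samples of a group. Since Map1b, Map6 and Mapt are known from neurons, 7 markers of neurons and glia were read too. They summed to 12.2 to 15.7 CPM in ERI-R and 43.7 to 116 CPM in Control. Rbfox3, Snap25 and Gfap were at 0 in all Control samples, and Snap25 and Syt1 in all ERI-R samples. Of the 3 that could be tested, Nefl, a neurofilament subunit, was lower in ERI-R (-6.13, edgeR adjusted p = 0.0017). The part of these markers in the results for the 10 genes was not tested.

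For 6 of the 10 genes RefSeq's promoter table for GRCm38.p6 held 9 start sites. Map6, Mapre2, Stmn1 and Mapt are not in it. The 250 bases before the start are shown for Map1b, which fell, and for the first of 2 start sites of Mapre3, which rose. In those 2 sequences capitals mark CpG dinucleotides. For Map7, which also rose, 30 bases are shown and capitals mark CACCTG.
Map1b, chr13:99516603-99516852, minus strand: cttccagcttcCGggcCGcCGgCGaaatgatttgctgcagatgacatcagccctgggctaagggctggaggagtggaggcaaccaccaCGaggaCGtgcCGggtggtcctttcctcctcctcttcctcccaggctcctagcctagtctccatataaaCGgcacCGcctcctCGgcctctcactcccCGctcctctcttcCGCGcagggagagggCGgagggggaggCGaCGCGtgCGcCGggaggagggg
Mapre3, chr5:30814391-30814640, plus strand: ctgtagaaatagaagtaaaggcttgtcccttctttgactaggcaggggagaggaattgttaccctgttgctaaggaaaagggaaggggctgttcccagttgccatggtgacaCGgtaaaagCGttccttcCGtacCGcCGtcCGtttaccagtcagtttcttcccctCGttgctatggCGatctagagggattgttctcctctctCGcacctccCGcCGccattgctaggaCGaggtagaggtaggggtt
Map7, chr10:20148816-20148845, plus strand: cctgcgacgccgCACCTGcccgccaggggg

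The Map1b window holds 19 CpG, more than 80.3% of all 32851 RefSeq promoter windows of this length, whose median is 6. It overlaps an exon of Gm26559, a noncoding RNA read in the other direction. The Mapre3 window shown holds 12 CpG, more than 66.5% of all windows, and the window of its other start site (chr5:30861557-30861806) holds 5, more than 44.4%. The Map7 window is one of the densest, with 47 CpG, more than 99.8% of them, and lies in the 5′ UTR of a longer annotated transcript. CACCTG, searched on both strands together with its reverse complement CAGGTG, is an E-box that ZEB and SNAI repressors can bind. It occurs once in the Map7 window, 92 bases before the RefSeq start, and once in a second Map4 window, 118 bases before that start. The other 7 windows have no match, and 17.2% of all windows have at least 1. AACCGGTT, which grainyhead-like factors can bind and which is its own reverse complement, is in none of the 9 windows and in 0.116% of all. A match is a description of the letters only.

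Neither PAC-R nor VIN-R had a called difference from Control among the 10 genes. edgeR called 0 of 14226 genes in each of these comparisons, which is 0% of the genes tested. DESeq2 called 24 genes in PAC-R and 36 in VIN-R, none of them among the 10. At an unadjusted p under 0.05, edgeR had 1 of the 10 genes in each comparison, beside 1.72% of all genes in PAC-R and 2.68% in VIN-R. The fitted values of the 10 genes ran from -1.15 to 0.40 in PAC-R and from -0.90 to 0.33 in VIN-R.

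The gene with the lowest p in both was Map7, which rose in ERI-R. It stood at 1.83, 2.35 and 1.2 CPM in PAC-R and at 2.35, 2.01 and 2.09 CPM in VIN-R, all below the lowest Control sample of 3.64 CPM. PAC-R gave -1.15 (log2, SE 0.29, 95% interval -1.80 to -0.50) with an unadjusted edgeR p of 0.0026 and an adjusted p of 1. VIN-R gave -0.90 (SE 0.29, 95% interval -1.55 to -0.26) with an unadjusted p of 0.011 and an adjusted p of 1. Both comparisons use the same Control samples. Genes without overlap made up 7.58% of all genes tested in PAC-R (5.49% lower) and 8.35% in VIN-R (5.95% lower), and Map7 was the only one of the 10 in PAC-R. In VIN-R Mapre1 did not overlap either, at 197, 196 and 196 CPM against at least 206 CPM in Control, a value of -0.12 (log2, 95% interval -0.66 to 0.43).

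The other members lay near Control in both lines. Map1b stood at 347, 556 and 320 CPM in PAC-R and at 421, 466 and 325 CPM in VIN-R, in each case overlapping Control. Its intervals against Control, -1.05 to 0.70 in PAC-R and -1.06 to 0.69 in VIN-R, leave out a change of the size seen in ERI-R. Map6 stood at 11.6, 12 and 22.6 CPM in PAC-R and at 10.8, 8.53 and 20.7 CPM in VIN-R. Map4 stood at 252, 261 and 290 CPM in PAC-R and at 213, 244 and 337 CPM in VIN-R. For both genes the sample with few leukocyte transcripts was the highest of its line. The same held for Mapre3, Map7d1, Stmn1 and Mapt in PAC-R and VIN-R. In ERI-R that sample was the highest for these last genes as well, but the lowest for Map6 and Map4. Mapre3 stood at 9.83, 9.55 and 17.9 CPM in PAC-R and at 11.7, 8.69 and 15 CPM in VIN-R. Its intervals, -0.49 to 0.95 and -0.58 to 0.86, also leave out the ERI-R change. Map7d1 stood at 149, 124 and 223 CPM in PAC-R and at 161, 138 and 209 CPM in VIN-R.

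Mapre1 varied little in these lines, at 212, 185 and 179 CPM in PAC-R beside the VIN-R values given above. Mapre2 varied more than most members, at 70.3, 38.9 and 29.4 CPM in PAC-R and 25.5, 64.4 and 32 CPM in VIN-R, each time with 1 high sample. These samples, PAC-R 1 and VIN-R 2, also had the highest summed leukocyte markers of their groups (5800 and 5380 CPM). Control 2 and ERI-R 1 were likewise highest in both within their groups. A link between the 2 was not tested. Mapt had 0, 2 and 17 counts in PAC-R, while VIN-R samples had 5, 2 and 13. The 0 in PAC-R 1 allows up to 0.261 CPM, its floor of 3 counts. At this depth no difference of Mapt from Control was detected in either line. The intervals, -2.14 to 2.61 and -2.04 to 2.7 (log2), are wide and do not exclude changes within them.

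**Figure D2:**
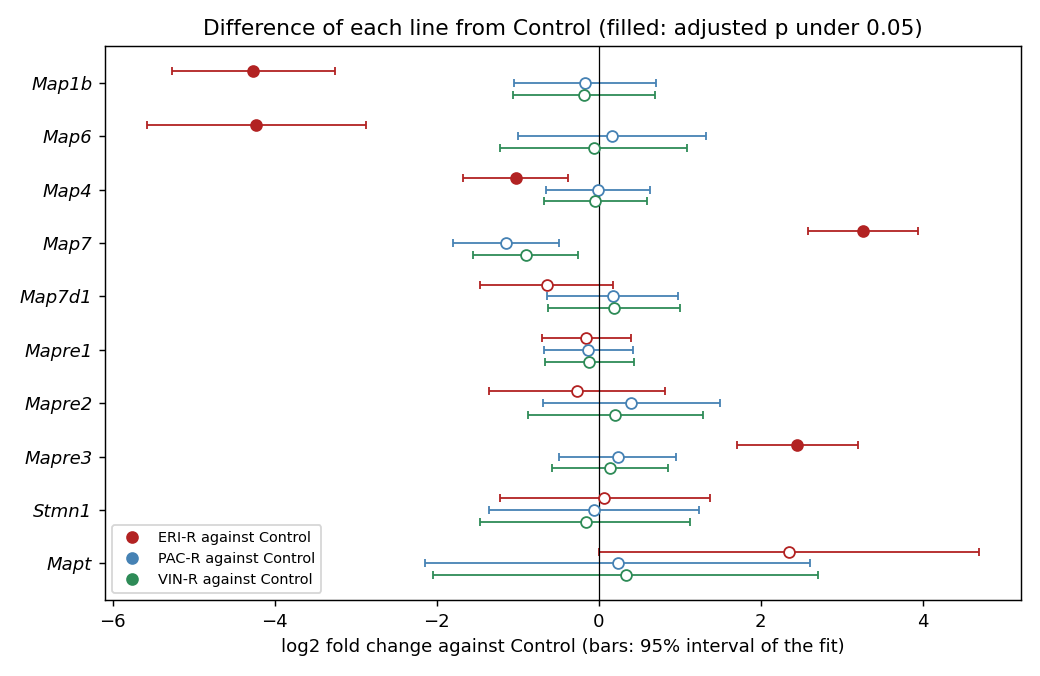
Log2 fold change of each gene in each resistant line against Control, with the 95% interval of the edgeR fit as bars. Filled points have an adjusted p under 0.05. The filled points belong to ERI-R (Map1b, Map6 and Map4 to the left, Map7 and Mapre3 to the right), and the PAC-R and VIN-R points lie between -1.15 and 0.40.

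Whether ERI-R differed from the other resistant lines was tested directly. The same 5 genes were called in both comparisons, 2 higher and 3 lower in ERI-R, where 18.7% of all genes tested were called against PAC-R (9.19% higher, 9.55% lower) and 19.3% against VIN-R (9.55% higher, 9.74% lower). Both use the ERI-R samples of the comparison with Control. Map7 differed by 4.41 (log2, SE 0.33; edgeR adjusted p = 3e-04) from PAC-R and by 4.17 (SE 0.32; adjusted p = 0.00016) from VIN-R. Map1b differed by -4.09 and -4.08, Map6 by -4.39 and -4.16, and Mapre3 by 2.22 and 2.31, with adjusted p from 0.00033 to 0.0015. Map4 differed by -1.02 (adjusted p = 0.033) from PAC-R and -0.98 (adjusted p = 0.037) from VIN-R. That gene lost its call among the 8 samples with leukocyte transcripts (-0.65, adjusted p = 0.075, and -0.48, adjusted p = 0.18). PAC-R and VIN-R did not differ in a called way in any of the 10 genes or of all genes tested with edgeR (0%). At an unadjusted p under 0.05 edgeR had 156 genes there (1.1%), none among the 10, and DESeq2 called 5. The 10 values ran from -0.25 to 0.22.

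Levels can be set beside each other between genes on the length-corrected TPM scale (transcripts scaled to a common total), as deposited. Stmn1 led in all 4 groups, with a mean of 392 ± 97 TPM in Control (SD, n = 3). Mapre1 (133 ± 23.4), Map4 (97.9 ± 16.6), Map7d1 (89.8 ± 16.8) and Map1b (67.2 ± 12.2) followed, each overlapping its neighbour within 1 SD. Then came Mapre2 (20.8 ± 6.04), with Mapre3 (11.5 ± 2.04) and Map6 (10.2 ± 4.1) indistinguishable below it. Map7 (1.92 ± 0.334) and Mapt (0.28 ± 0.07) were last. Map4 and Map1b, which are not neighbours in this order, overlapped neither within 1 SD nor in any sample.

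ERI-R had another order. Stmn1 (300 ± 76.3 TPM) and Mapre1 (130 ± 100) were still first, then Mapre3 (53.4 ± 13.4), Map7d1 (49.8 ± 8.43), Map4 (46.6 ± 28.8), Mapre2 (20.3 ± 12.7) and Map7 (18.9 ± 7.78), each overlapping its neighbour within 1 SD. Map1b (4.34 ± 2.16) lay clearly below Map7, and Mapt (0.967 ± 0.312) and Map6 (0.543 ± 0.42) overlapped at the end. By these means Map1b was above Map7 in Control and below it in ERI-R. PAC-R and VIN-R shared 1 order, from Stmn1 (325 ± 154 and 311 ± 139 TPM) over Mapre1, Map7d1, Map4, Map1b, Mapre2, Mapre3 and Map6 to Map7 (1.15 ± 0.232 and 1.06 ± 0.318) and Mapt. It differs from the Control order only in the places of Map7d1 and Map4, which overlap within 1 SD in all 3 groups.

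Within the end-binding family Mapre3 took a larger share in ERI-R. Its share of the summed TPM of Mapre1, Mapre2 and Mapre3 was 9.96%, 5.33% and 6.32% in Control and 25.4%, 19.1% and 62.3% in ERI-R. ERI-R 3 was far above the other ERI-R samples, and all 3 were above Control. The means were 7.2% ± 2.44 and 35.6% ± 23.3 (SD, n = 3), a difference of 28.4 percentage points. A two-sided exact permutation test gave p = 0.1, the smallest that 3 against 3 samples allow, and 0.3 adjusted over 6 such tests. On CPM, which does not depend on the length estimate, the difference was 17.4 points (4.12% ± 0.364 and 21.5% ± 9.07). Without ERI-R 3 the TPM difference was 15.1 points. PAC-R (9.01% ± 6.23, exact p = 0.9) and VIN-R (9.58% ± 5.52, exact p = 0.7) overlapped Control.

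Map7 also took a larger share of its pair with Map7d1. It held 1.47%, 2.14% and 2.94% of their summed TPM in Control, and 32.4%, 33.1% and 16.4% in ERI-R. ERI-R 3 had the lowest share of its group, and the groups do not overlap. The difference of means was 25.1 points (27.3% ± 9.44 against 2.18% ± 0.737; exact permutation p = 0.1, adjusted 0.3). PAC-R (1.33% ± 0.461; difference -0.85 points, exact p = 0.3) and VIN-R (1.17% ± 0.481; difference -1.01 points, exact p = 0.2) overlapped Control on this scale. On CPM they did not: Map7 held 0.535% to 1.85% in PAC-R and 0.992% to 1.44% in VIN-R, below the 2.01% to 3.76% of Control. The ERI-R share on CPM was 19.8% to 38.1%.

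**Figure D3:**
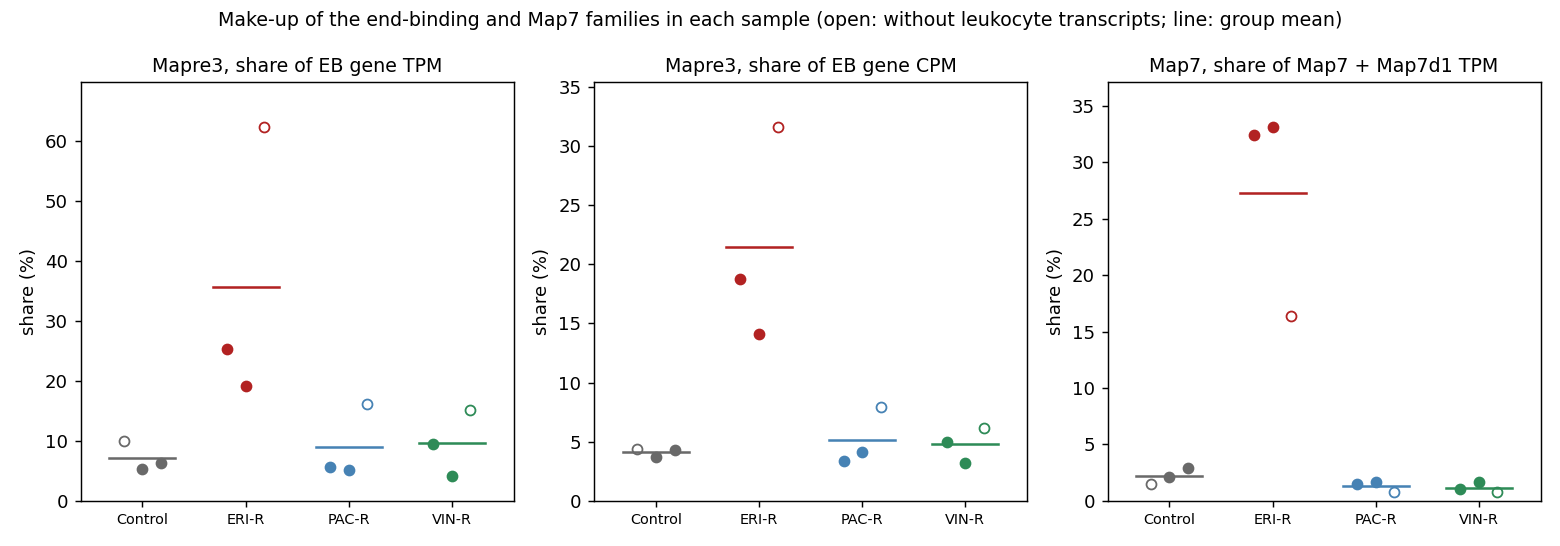
Share of Mapre3 in the summed TPM and in the summed CPM of Mapre1, Mapre2 and Mapre3, and share of Map7 in the summed TPM of Map7 and Map7d1, in percent for each sample. Open circles are the samples without leukocyte transcripts and lines are group means. ERI-R samples reach 19.1% to 62.3%, 14.1% to 31.6% and 16.4% to 33.1%, above all Control samples in each panel.

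The files also give a mean transcript length per gene, weighted by the estimated amount of each isoform. limma called no change of it in any of the 3 lines against Control, for 0 of the 8 members that could be tested and 0 of all 9327 genes (0%). Map6 and Mapt were too low to be tested. Before adjustment, limma gave 1 of the 8 a p under 0.05, Map7 in PAC-R (-0.58 on the log2 scale, unadjusted p = 0.025, adjusted p = 1).

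Single samples nevertheless stood apart. Mapre1 had mean lengths of 3534, 2545 and 2513 bases in Control and of 2308, 2289 and 7336 bases in ERI-R. PAC-R samples had 2411, 2360 and 4324 bases, and VIN-R samples 3764, 2222 and 4342. Its annotation holds a protein-coding transcript of 7336 bases and 2 processed transcripts of 692 and 483 bases, and ERI-R 3 was thus assigned the coding form alone. The 4 samples with few leukocyte transcripts had 3534 to 7336 bases and the other 8 had 2222 to 3764. In ERI-R 3 Mapre1 read 134 CPM but only 17.6 TPM, while ERI-R 1 read 206 CPM and 163 TPM. TPM of this gene moves with the length estimate, but not with that alone. At nearly equal lengths, other genes also read low in TPM beside CPM in ERI-R 3. Stmn1 read 363 CPM and 387 TPM in ERI-R 3 (1059 bases), and 129 CPM and 249 TPM in ERI-R 1 (1051 bases). Map4 read 78.4 CPM and 15.6 TPM in ERI-R 3 (4911 bases), and 207 CPM and 72.3 TPM in ERI-R 1 (4979 bases). The reason was not tested. Map1b had 3784 bases in ERI-R 3, where its count was lowest, 8741 in PAC-R 3 and 8574 in VIN-R 1, with 11370 to 11730 in the other 9 samples. Whether these lengths reflect isoforms was not tested.

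**Figure D4:**
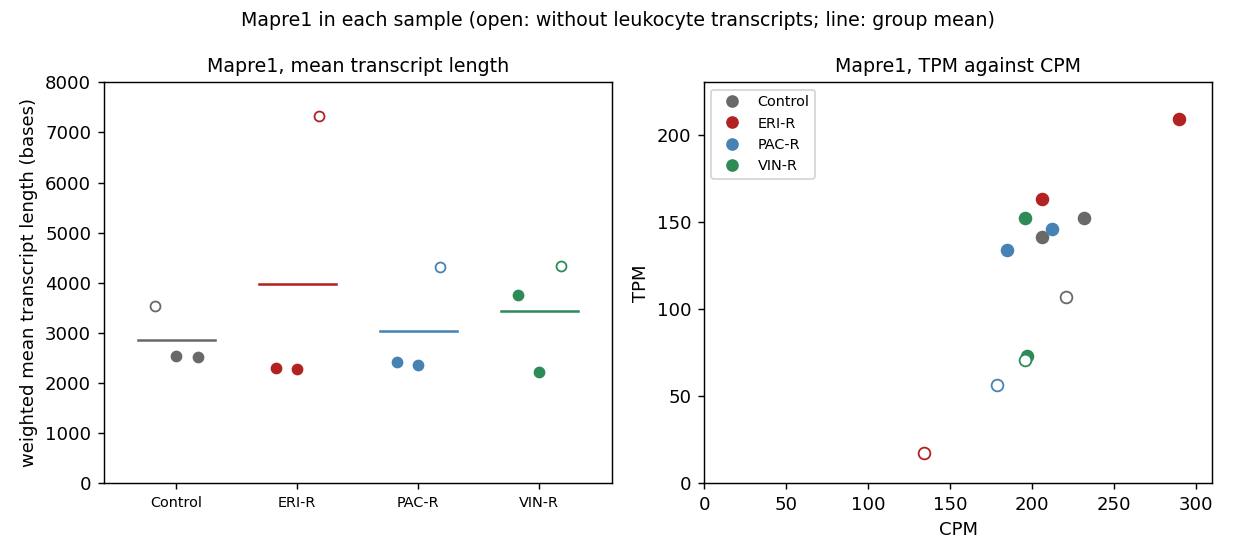
Mapre1 in each sample: weighted mean transcript length in bases by group (left, lines are group means) and TPM against CPM (right). Open circles are the samples without leukocyte transcripts. ERI-R 3 stands alone at 7336 bases and at 134 CPM with 17.6 TPM.

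Other genes that act on microtubules were called about as often as genes in general. Of 72 such genes in 6 lists, 61 were tested, and 5 were called higher and 5 lower in ERI-R than in Control, which is 16.4% beside 19.2% of all genes tested. PAC-R and VIN-R had 0 called against Control. Against PAC-R, ERI-R had 8 higher and 6 lower (23% beside 18.7% of all genes), and against VIN-R 7 higher and 6 lower (21.3% beside 19.3%). The lists were chosen with results of these data known, and their counts are a description.

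Of 17 tested lattice-binding proteins, 2 rose and 2 fell in ERI-R (median log2 fold change -0.16). Mid1, a ubiquitin ligase on microtubules, rose from 18.9 ± 2.67 to 137 ± 23.4 CPM (log2 2.85, edgeR adjusted p = 0.00067). Dclk1, a doublecortin-like kinase, rose from 6.83 ± 0.669 to 28.9 ± 20.1 CPM (1.98, adjusted p = 0.0099). Mtcl1, a microtubule crosslinking protein, fell from 112 ± 18.3 to 19.1 ± 9.28 CPM (-2.64, adjusted p = 0.00056). Eml2, of the EMAP-like family, fell from 24.2 ± 6.4 to 11.1 ± 2.33 CPM (-1.20, adjusted p = 0.0093), and lost the call without Control 1 (-0.92, adjusted p = 0.07).

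Of 20 tested plus-end trackers, 1 rose and 2 fell (median -0.20). Clip4, a CLIP-family protein with CAP-Gly domains, had 3 counts in all Control samples together and 317 in ERI-R (9.36 ± 1.43 CPM). The ratio was 115, with a 95% counting interval of 39.1 to 562 (edgeR adjusted p = 0.0012). Its fitted log2 value, 6.63, was 7.53 without Control 3. Nav1, a neuron navigator that tracks plus ends, fell from 224 ± 51.5 to 42.9 ± 7.15 CPM (-2.41, adjusted p = 5e-04). Tacc2, a coiled-coil protein of centrosomes and plus ends, fell from 90.1 ± 19 to 32.7 ± 0.114 CPM (-1.49, adjusted p = 0.006).

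The remaining lists had few calls. Camsap3, which caps minus ends and anchors them in epithelial cells, was the 1 of 3 minus-end binders called and rose from 2.13 ± 0.929 to 27 ± 12.3 CPM (3.70, edgeR adjusted p = 0.01). It missed the threshold without Control 2 (3.52, adjusted p = 0.052). Mark1, a kinase that detaches tau-family proteins from microtubules, was the 1 of 6 kinases called and rose from 13.7 ± 3.88 to 34.4 ± 10.3 CPM (1.24, adjusted p = 0.026). Leaving out Control 2 (1.16, adjusted p = 0.11), Control 3 (1.09, 0.12), ERI-R 1 (1.14, 0.07) or ERI-R 2 (1.28, 0.059) ended this call. Of 10 destabilisers and severing proteins only Fign, a severing protein, was called. It fell from 1.94 ± 0.332 to 0.119 ± 0.0522 CPM (-3.99, adjusted p = 0.00073), and is below the level set for naming genes. It is named because it is the only call of its list. None of 5 kinesin-1 subunits, the motor that MAP7 recruits, was called, and 1 of the 5 had an unadjusted p under 0.05.

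**Figure D5:**
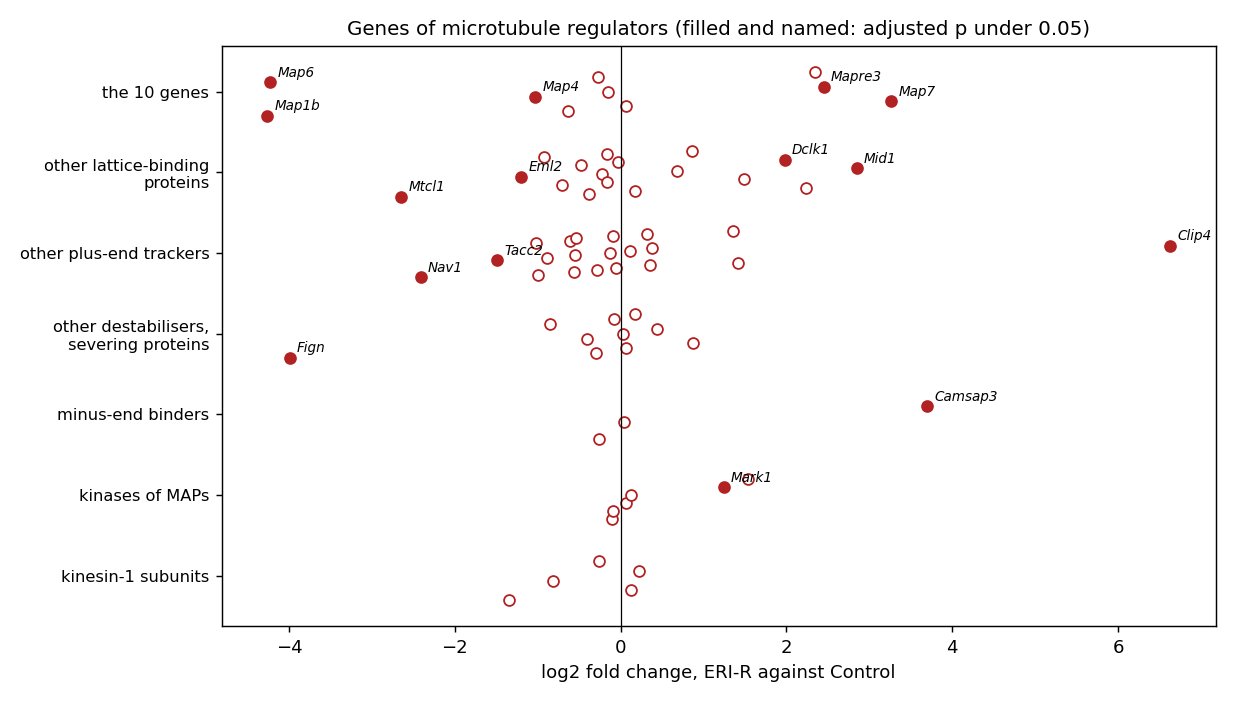
Log2 fold change in ERI-R against Control for the 10 genes and for 6 lists of other microtubule regulators, 1 circle per tested gene. Filled and named circles have an edgeR adjusted p under 0.05. Calls lie on both sides of 0, from Map1b at -4.26 to Clip4 at 6.63.

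Across the 12 samples, Map4 and Map6 varied most alike among the 10 genes (Pearson r 0.97 of log2 CPM), followed by Map1b with Map6 (0.94). Map7 and Mapre3 varied alike (0.88), and Map1b and Mapre3 most oppositely (-0.98). These values describe 12 samples of 4 groups and follow largely from the level of ERI-R. Among 11683 other genes that reached 5 CPM as the mean of a group, Aox1 (0.99) and Plce1 (0.99) were most like Map1b, Jade2 (0.99) and Sema4c (0.98) most like Map4, and Slc12a4 (1.00) and Chst1 (0.99) most like Map6. Slc25a15 (0.99) and Enah (0.99) were most like Map7, Coro1b (0.98) and Mapk3 (0.97) most like Map7d1, and Pkp3 (0.99) and D11Wsu47e (0.99) most like Mapre3. Mapre2 came nearest to Cgas and Fkbp15 (0.97 each), and Stmn1 to D10Jhu81e and Urod (0.98 each). Mapt, at its low counts, came nearest to Tgif2 (0.97) and Nckipsd (0.96). Mapre1 had no close match, with Eif2s1 (0.83) and Erlin2 (0.82) first.

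In GRCm38 (GENCODE M21) the genes lie on 9 chromosomes. Those that fell in ERI-R are Map1b (chromosome 13, 99421446 to 99516540, minus strand), Map6 (chromosome 7, 99267447 to 99337137, plus) and Map4 (chromosome 9, 109931460 to 110083955, plus). Those that rose are Map7 (chromosome 10, 20148471 to 20281590, plus) and Mapre3 (chromosome 5, 30814641 to 30866106, plus). Only Map7d1 and Stmn1 share a chromosome, number 4. Exons of Map7 overlap the antisense gene Gm48249 by 332 bases, and those of Stmn1 the microRNA gene Gm23634 by 66 bases. Both overlapping genes had 0 CPM in all 12 samples. Expected counts were whole numbers in all 12 samples for 9 of the 10 genes and in none for Stmn1. RSEM gives values that are not whole where reads can come from more than 1 gene, so the level of Stmn1 is less certain.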

How the data were processed

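Polyadenylated RNA of 12 samples (Kapa mRNA HyperPrep, 200 ng, paired ends of 76 bases, per the labels' protocols) was processed with RSEM 1.3.2, STAR 2.7.2b, cutadapt 2.4 and bcl2fastq 2.20.0.422, on GRCm38, per the submitters' processing notes. Which annotation and which strand setting were used is not given in the sources used here. Deposited values are, per the file headers, expected counts (estimated read pairs per gene, not normalized), TPM and an abundance-weighted transcript length in bases. TPM were used as deposited for levels between genes and shares.

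Expected counts were rounded, which changed 15.3% of values above 0. Genes were filtered with filterByExpr, scaled by TMM and fitted with edgeR 4.0.16 (glmQLFit, robust; R 4.3.3) over all 12 samples with a mean per group. TMM factors were 0.855 to 1.18, residual degrees of freedom 8, prior degrees of freedom 2.64 (median) and the common coefficient of biological variation 0.591. Each of 6 comparisons was adjusted over 14226 genes and called under 0.05. Log2 values are fitted fold changes, and intervals are 95% intervals of the fit. CPM in the text are unscaled. Length was tested with limma 3.58.1 (log2 length, trend) on 9327 genes with at least 1 CPM in all samples, and shares with exact permutation tests. DESeq2 1.42.0, other scalings and filters, the 2 groups alone, a replicate block, samples with or without leukocyte transcripts, a leukocyte covariate and leaving out each sample were the alternatives. On data simulated for ERI-R against Control with 14226 genes, edgeR recovered 94.9% of log2 changes of 2 and 99.0% of 3 at a dispersion of 0.05, and 5.1% and 43.4% at the estimated dispersions. The limma step recovered 100% of log2 length changes of 1 over 9327 genes, simulated with an SD of 0.1 for every gene. In the data the standard errors for ERI-R against Control ran from 0.00984 (Stmn1) to 0.478 (Mapre1). Recovery at the spread of the data was not tested, so lengths not called may still differ.

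The members and lists were chosen with earlier results of these data known. All 10 members are named, with the 2 genes most correlated with each (log2 CPM with a prior count of 1, mean of at least 5 CPM in a group), and called genes of other lists with at least 5 CPM in the higher group, at most 3 in each direction. All 135 list symbols were matched. Figures were drawn with matplotlib 3.10.9.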

Additional observations from a re-analysis of the deposited data

Results flagged for a closer look

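For 5 of the 10 genes the change from Control in ERI-R differed from that in the other resistant lines, by edgeR's test of ERI-R against each of them (adjusted p under 0.05 over 14226 genes). Against PAC-R the differences were -4.091 for Map1b, -1.016 for Map4, -4.388 for Map6, 4.412 for Map7 and 2.219 for Mapre3 (log2). Against VIN-R they were -4.079 for Map1b, -0.9844 for Map4, -4.164 for Map6, 4.165 for Map7 and 2.312 for Mapre3. The Control samples cancel in these differences. Map1b, Map6, Map7 and Mapre3 kept their call when any 1 of the 12 samples was left out, whereas Map4 kept it in 5 of 12 such fits against PAC-R and in 3 of 12 against VIN-R.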

How the results depend on the processing

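The number of the 10 genes called stayed within 1.5 times the reported one in all 21 alternatives that gave a test: 4 to 6 for ERI-R against Control, 4 to 7 against PAC-R and against VIN-R, and 0 for PAC-R and VIN-R against Control and against each other. Map1b, Map6, Map7 and Mapre3 in ERI-R against Control kept direction and call in all of them. Map4 there lost its call with total counts alone (-0.91, adjusted p = 0.11), no filter (-1.02, 0.12), the 2 groups alone (-1.03, 0.13) and the 8 samples with leukocyte transcripts, while the leukocyte covariate kept it (-1.02, 0.016). Over all genes, ERI-R against Control had 2732 calls, 1744 with the 2 groups alone and 4530 with the leukocyte covariate. The same 2 settings gave 1254 and 4138 against PAC-R and 1493 and 4305 against VIN-R. Since Control and ERI-R hold 1 and 2 samples of each kind, the 4 samples without leukocyte transcripts give values only. Depth limits values under the floor of 3 counts, which among the 10 genes are Map6 in ERI-R 3 and Mapt in PAC-R 1, PAC-R 2 and VIN-R 2. At the estimated dispersions most log2 changes of 2 were missed on simulated data, so genes not called may still differ.

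The replicate numbers were not taken as pairs, since the labels do not say what a number marks. The deviations of same-numbered samples correlated above 0.1 in 11 of 18 pairs. This check cannot decide on pairing, because the sample with few leukocyte transcripts is number 1 in Control and number 3 in the resistant lines. The correlations were 0.415 to 0.751 for number 2 and, among the resistant lines, 0.671 to 0.917 for number 3 and 0.0829 to 0.62 for number 1. Pairs with Control 1 (-0.863 to -0.358) and Control 3 (-0.73 to -0.58) were negative, and 0 of 12 samples correlated best with their own number in all other groups. With the replicate number as a block, 4 of the 10 genes were called in ERI-R against Control, with Map4 at -1.04 (adjusted p = 0.053), and 2666 genes in all. Map4 also lost its call under the block against PAC-R (-1.03, 0.056) and VIN-R (-1.01, 0.061), which left 4 genes in each. The block turned Stmn1 in ERI-R to -0.2388, Mapt in PAC-R to -0.3336 and Mapt in VIN-R to -0.02968 (log2, against Control).

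Values near 0 that were not called changed sign elsewhere, and the cause was not tested. With only the samples with leukocyte transcripts these were, against Control, Stmn1 -0.5587 and Mapre1 0.06607 in ERI-R, Map4 0.04045, Mapre3 -0.07319 and Mapt -1.431 in PAC-R and Mapre3 -0.01871 in VIN-R. For ERI-R against PAC-R they were Mapre1 0.1477 and Stmn1 -0.1074, and against VIN-R Mapre1 0.1777 and Stmn1 -0.3353. The Mapre3 share in PAC-R minus Control became -0.403 points. The leukocyte covariate gave Stmn1 -0.2103 against Control and -0.1149 against PAC-R. Mapre1 in ERI-R against PAC-R was 0.03124 with DESeq2 size factors, 0.1328 with total counts, 0.03174 with DESeq2 and 0.0614 with the 2 groups alone. Against VIN-R it was 0.01635, 0.1011 and 0.01674 with the first 3 of these.

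Leaving out 1 sample at a time gave, for ERI-R against Control, -0.3468 to 0.1224 for Mapre1, -0.4544 to 0.1159 for Mapre2 and -0.681 to 0.4098 for Stmn1. For PAC-R against Control it gave -0.1105 to 0.09677 for Map4, -0.1917 to 0.5089 for Map6, -0.0692 to 0.3491 for Map7d1, -0.1084 to 0.6988 for Mapre2, -0.09222 to 0.3979 for Mapre3, -0.6064 to 0.2027 for Stmn1 and -2.124 to 0.9394 for Mapt. For VIN-R against Control it gave -0.22 to 0.105 for Map4, -0.4929 to 0.2734 for Map6, -0.369 to 0.5038 for Mapre2, -0.04333 to 0.2786 for Mapre3, -0.4008 to 0.1586 for Stmn1 and -0.4525 to 1.009 for Mapt. For ERI-R against PAC-R it gave -0.2361 to 0.2581 for Mapre1 and -0.6371 to 0.6593 for Stmn1, and against VIN-R -0.2529 to 0.2292 for Mapre1, -0.7538 to 0.08458 for Mapre2 and -0.5353 to 0.5528 for Stmn1. The Mapre3 share minus Control ran from -1.78 to 3.74 points in PAC-R and from -0.426 to 5.1 points in VIN-R. Mapt in ERI-R against PAC-R ran from 1.549 to 4.451 and was called without PAC-R 3 (adjusted p = 0.028).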
